A study of Homo sapiens with 6 samples.

Results

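Respiratory complexes II to V of the mitochondrial inner membrane are described here through their nuclear genes, in 293T cells given a GFP-812 plasmid or a GFP plasmid. The members were chosen by gene symbol from the deposited table: symbols that begin with UQCR, COX4, COX5, COX6, COX7, COX8 or ATP5, together with CYC1, SDHA, SDHB, SDHC and SDHD. Symbols that end in P and a number, which are pseudogenes, and symbols with a hyphen were left out. The rule found 50 genes of 61806 in the table: 4 of complex II, 10 of complex III, 17 of complex IV and 19 of complex V. Of these, 44 had enough counts to be tested and 6 did not.

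The cells of all 6 libraries were 293T, an established human embryonic kidney line that expresses a viral T antigen, transfected with a lipid reagent. The GFP-812 group (n = 3) received a plasmid of that name and the GFP group (n = 3) a plasmid for green fluorescent protein. The labels do not explain the number in the plasmid's name, and the series title speaks of truncated NEK1, a protein kinase. What fraction of the cells took up a plasmid is not given in the sources used here, so each library averages over transfected and other cells, and fewer cells of a kind and less RNA per cell cannot be told apart. No label says that the libraries of a group come from separate cultures, so the p-values are set against a spread among libraries that may be purely technical.

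NEK1 itself, the check of the labels, stood at 562.7, 518.3 and 493.7 FPKM (counts scaled to exonic size and library total) in the GFP-812 libraries, against 3.82, 3.99 and 3.91 FPKM in the GFP libraries. The exact 2-sided permutation test gave p = 0.1, the smallest value that 3 against 3 allows. Library totals lay between 14255148 and 17613814 counts. The labels call the cells epithelial. Of the epithelial keratins, KRT8 lay at 8.95 to 10.8 FPKM and KRT18 at 14.5 to 16.4 FPKM over the 6 libraries; EPCAM lay at 0.86 to 1.19 FPKM and CDH1 at 0.53 to 0.74 FPKM. The blood marker PTPRC was at 0 in all 6 and the endothelial markers PECAM1, CDH5 and VWF did not pass 0.02 FPKM. No marker list had a member past the threshold.

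Complexes II to IV carry electrons toward oxygen. Complex II, succinate dehydrogenase, takes them from succinate and passes them to ubiquinone; complex III hands them from ubiquinol to cytochrome c; complex IV, cytochrome c oxidase, reduces oxygen. Complexes III and IV pump protons as they work, and complex V, the ATP synthase, lets the protons flow back and makes ATP. Complex II is built from nuclear genes alone, whereas complexes III, IV and V also hold subunits made from mitochondrial DNA, so that their assembly joins the products of both genomes. Many of the nuclear genes are known targets of the transcription factors NRF1 and GABP.

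Most members had fitted values slightly above 0 in GFP-812 over GFP cells, and few of them passed the test. Of the 44 members tested, 5 rose, 0 fell and 39 did not pass (edgeR's quasi-likelihood test, Benjamini-Hochberg adjusted p under 0.05 over 16834 genes). The risen members were ATP5MC1, COX6C, UQCRH, COX7B and COX4I1. Among all genes tested, 1.18% were called higher and 2.67% lower in GFP-812 cells (198 and 449 genes; 280 and 339 with upper-quartile scaling, which called 6 members higher). At an unadjusted p under 0.05 the counts were 15 of 44 members and 2717 of 16834 genes in both directions. The fitted log2 fold change was above 0 for 43 of 44 members, with a median of 0.10, beside 51.9% of all genes tested and a median of 0.01. The members ranged from -0.07 for UQCRFS1 to 0.54 for the scarce COX6B2. By complex, 0 of 4 members of complex II rose (median 0.04), 1 of 10 of complex III (0.08), 3 of 12 tested of complex IV (0.13) and 1 of 18 tested of complex V (0.09).

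**Figure D1:**
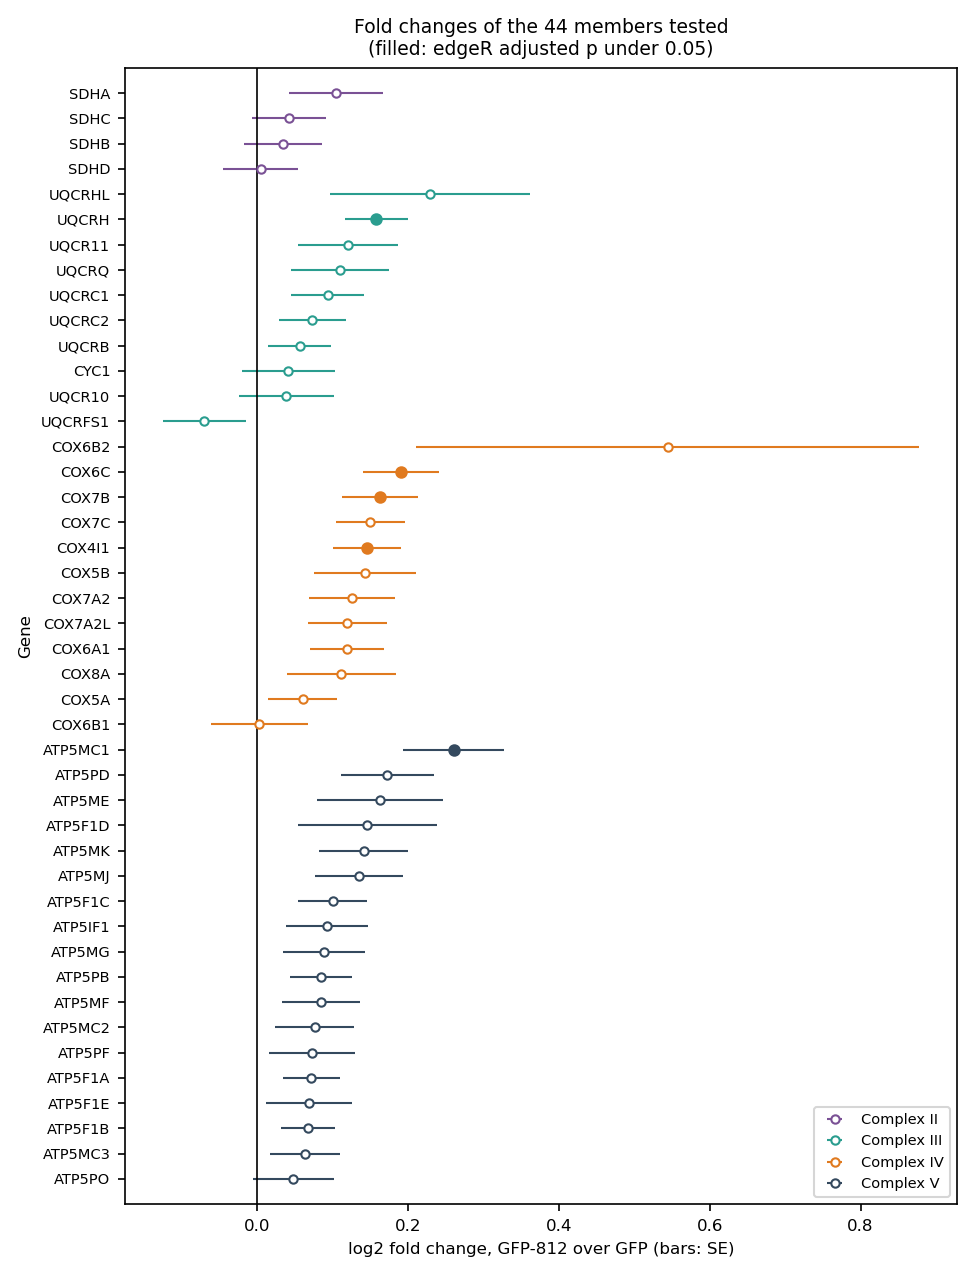
Log2 fold change of each of the 44 tested members, GFP-812 over GFP, with its SE (x axis), sorted within each complex (y axis); filled points are the 5 genes with an edgeR adjusted p under 0.05. All members but UQCRFS1 lie right of 0.

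ATP5MC1 had the smallest p of all members. It encodes subunit c, which forms the rotating ring of the ATP synthase in the membrane, and lies on chromosome 17 (48892765 to 48895871, plus strand, hg38). Its level was 19.8, 22.3 and 19.8 FPKM in GFP-812 libraries 1, 2 and 3, against 17.3, 16.3 and 18.6 FPKM in GFP libraries 1, 2 and 3. The groups did not overlap, and GFP-812 replicate 2 stood above the rest. The log2 fold change was 0.26 (SE 0.0665, edgeR adjusted p = 0.0132). Leaving out GFP-812 replicate 2 ended the call (adjusted p = 0.213), as did leaving out GFP replicate 1 (0.0561) or GFP replicate 2 (0.102).

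Subunit c has 3 genes, whose proteins differ in the import sequence that is cut off and give the same mature subunit. ATP5MC2 had 22.4, 22.8 and 23.6 FPKM in GFP-812 libraries, against 22.1, 21.1 and 22.6 FPKM in GFP libraries (log2 fold change 0.08, adjusted p = 0.497). ATP5MC3, the highest of them, had 50.7, 46.0 and 46.8 FPKM in GFP-812 libraries, against 45.7, 43.4 and 49.5 FPKM in GFP libraries (log2 fold change 0.06, adjusted p = 0.534). In both genes the groups overlapped, and whether their fold changes differed from that of ATP5MC1 was not tested.

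COX6C, a small membrane subunit of cytochrome c oxidase, lies on chromosome 8 (99873200 to 99893707, minus strand). Its level was 50.4, 49.2 and 52.8 FPKM in GFP-812 libraries, against 45.3, 41.0 and 48.4 FPKM in GFP libraries. All GFP-812 libraries stood above all GFP libraries, with GFP replicate 3 the nearest. The log2 fold change was 0.19 (SE 0.0502, adjusted p = 0.0169), and the call was lost without GFP-812 replicate 2 (0.0571), GFP-812 replicate 3 (0.15) or GFP replicate 2 (0.187).

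UQCRH, the hinge protein that helps cytochrome c dock on complex III, lies on chromosome 1 (46303698 to 46316776, plus strand). Its level was 180.2, 188.7 and 177.8 FPKM in GFP-812 libraries, against 164.2, 159.3 and 170.6 FPKM in GFP libraries. The groups did not overlap (log2 fold change 0.16, SE 0.0418, adjusted p = 0.017). The near copy UQCRHL had 5.66, 5.70 and 4.58 FPKM in GFP-812 libraries, against 4.09, 5.36 and 4.23 FPKM in GFP libraries (log2 fold change 0.23, adjusted p = 0.397), with overlapping groups. In the GENCODE v29 transcripts, 29.4% of all 50-base windows of UQCRH also occur in UQCRHL, so both values are uncertain. The call of UQCRH was lost in 4 of 6 fits without 1 library: adjusted p was 0.0545 without GFP-812 replicate 1 and 0.209 without GFP-812 replicate 2, and it was 0.068 without GFP replicate 1 and 0.0874 without GFP replicate 2. It was also lost, at a log2 fold change of 0.08 (adjusted p = 0.226), after a correction for GC content and transcript length, and at 0.11 (0.13) after one for exonic size.

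COX7B, a small subunit needed for the assembly of complex IV, lies on chromosome X (77899440 to 77907376, plus strand). It had 39.2, 38.0 and 38.6 FPKM in GFP-812 libraries, against 34.0, 33.3 and 37.1 FPKM in GFP libraries (log2 fold change 0.16, SE 0.0498, adjusted p = 0.0488). COX4I1, the broadly expressed form of the largest nuclear subunit of complex IV, lies on chromosome 16 (85798633 to 85807068, plus strand). Its level was 40.3, 42.2 and 40.5 FPKM in GFP-812 libraries, against 36.4, 35.8 and 40.0 FPKM in GFP libraries (log2 fold change 0.15, SE 0.0446, adjusted p = 0.0489). The groups did not overlap for either gene, and GFP replicate 3 came within 1 FPKM of the lowest GFP-812 library. Both calls were lost in each fit without 1 library except the one without GFP replicate 3, at adjusted p-values of 0.147 to 0.217 for COX7B and 0.103 to 0.292 for COX4I1. They were also lost with median-of-ratios scaling, no filter on low counts, DESeq2 and the correction for exonic size.

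**Figure D2:**
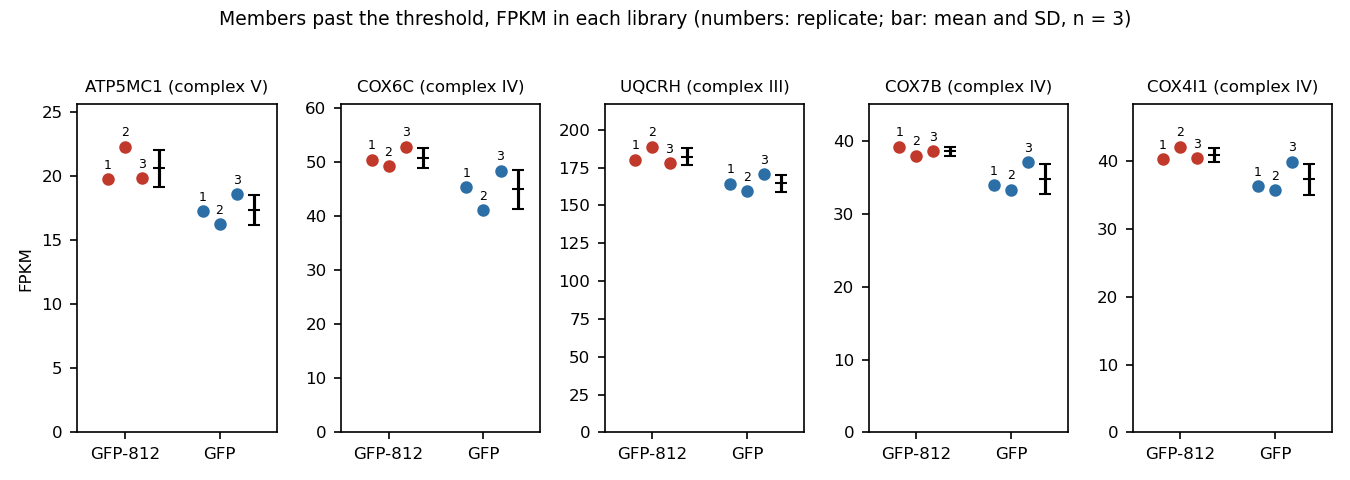
FPKM (y axis, from 0) of the 5 risen members in each GFP-812 and GFP library (x axis), with replicate numbers beside the points and the mean and SD of each group (n = 3) as bars. In each panel GFP replicate 3 is the GFP library closest to the GFP-812 libraries.

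Promoter windows from RefSeq (GRCh38.p14, 250 bases before to 50 bases after the annotated start) were matched for 38 of the 50 members. The windows of 4 risen genes, and those of SDHA and ATP5PF, which hold the searched motifs, are printed 5′ to 3′ on the gene's strand so that the motif counts can be read against the letters. Capitals mark GCGCANGC (the core of the NRF1 motif), CCGGAAG (ETS factors such as GABP) and AAGATGGC (YY1), each searched on both strands. GGGCGG (SP1) was counted too and is not marked. No motif's letters contain those of another, and none can match both strands at the same position. The RefSeq start lies at the bound given in the deposited table for UQCRH and inside the bounds for the other 5 genes.
ATP5MC1, chr17:48892537-48892836, plus strand: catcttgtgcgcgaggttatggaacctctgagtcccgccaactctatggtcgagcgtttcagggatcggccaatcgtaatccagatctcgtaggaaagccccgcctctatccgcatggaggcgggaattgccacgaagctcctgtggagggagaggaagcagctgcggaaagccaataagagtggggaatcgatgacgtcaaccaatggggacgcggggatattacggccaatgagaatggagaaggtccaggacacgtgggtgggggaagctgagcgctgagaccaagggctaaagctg
COX4I1, chr16:85799445-85799744, plus strand: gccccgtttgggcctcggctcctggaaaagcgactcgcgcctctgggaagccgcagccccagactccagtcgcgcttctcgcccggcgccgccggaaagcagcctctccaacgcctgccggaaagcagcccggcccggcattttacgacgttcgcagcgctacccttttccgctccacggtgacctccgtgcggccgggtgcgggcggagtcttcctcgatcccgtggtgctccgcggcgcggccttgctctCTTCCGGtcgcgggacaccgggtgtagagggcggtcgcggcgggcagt
COX7B, chrX:77899218-77899517, plus strand: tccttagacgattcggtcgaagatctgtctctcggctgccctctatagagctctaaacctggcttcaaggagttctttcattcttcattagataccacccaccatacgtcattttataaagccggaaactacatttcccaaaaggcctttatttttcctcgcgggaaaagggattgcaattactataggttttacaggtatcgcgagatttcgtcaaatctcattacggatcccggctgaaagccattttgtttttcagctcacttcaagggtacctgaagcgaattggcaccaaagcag
UQCRH, chr1:46303448-46303747, plus strand: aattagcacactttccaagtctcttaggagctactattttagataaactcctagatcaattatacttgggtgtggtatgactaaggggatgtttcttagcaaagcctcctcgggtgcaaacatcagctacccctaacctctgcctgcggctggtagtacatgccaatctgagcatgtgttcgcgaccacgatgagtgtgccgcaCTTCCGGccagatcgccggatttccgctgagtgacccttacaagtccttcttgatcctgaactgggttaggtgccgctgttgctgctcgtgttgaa
SDHA, chr5:218070-218369, plus strand: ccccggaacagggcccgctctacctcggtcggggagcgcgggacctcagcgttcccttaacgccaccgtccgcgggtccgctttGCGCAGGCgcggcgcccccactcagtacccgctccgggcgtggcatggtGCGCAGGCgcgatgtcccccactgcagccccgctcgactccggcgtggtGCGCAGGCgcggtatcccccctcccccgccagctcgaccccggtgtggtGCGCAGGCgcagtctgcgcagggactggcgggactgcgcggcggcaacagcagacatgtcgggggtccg
ATP5PF, chr21:25735005-25735304, minus strand: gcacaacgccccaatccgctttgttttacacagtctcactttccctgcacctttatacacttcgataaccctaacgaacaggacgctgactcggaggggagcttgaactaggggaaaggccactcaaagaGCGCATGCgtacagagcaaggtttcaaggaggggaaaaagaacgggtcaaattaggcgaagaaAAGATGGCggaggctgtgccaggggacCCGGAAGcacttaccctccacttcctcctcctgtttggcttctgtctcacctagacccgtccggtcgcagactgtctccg

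Among these windows, UQCRH and COX4I1 hold 1 ETS match each, read on the opposite strand, COX4I1 also holds 2 SP1 matches, and the windows of ATP5MC1 and COX7B hold no match to any of the 4 motifs. SDHA holds 4 NRF1 matches spaced 49 bases apart, and ATP5PF holds 1 match each to NRF1, YY1 and ETS. The NRF1 letters occurred in 17 of the 35 windows of tested members (48.6%), against 12.5% of all 27303 windows in the table and 21.3% of the windows of tested genes. ETS letters occurred in 42.9% of the members' windows, against 10.7% of all windows and 18.2% of those of tested genes. For YY1 the shares were 14.3%, 3.0% and 5.1%, and for SP1 62.9%, 44.6% and 69.5%. These are counts of letters in a fixed window and do not show that a factor binds there.

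Complex II showed the smallest median. SDHA carries the flavin that oxidises succinate, SDHB holds the iron-sulphur clusters, and SDHC and SDHD anchor the enzyme in the membrane. SDHA had the smallest p of the complex, with 6.67, 6.77 and 6.60 FPKM in GFP-812 libraries, against 6.08, 5.91 and 6.81 FPKM in GFP libraries (log2 fold change 0.10, SE 0.0623, adjusted p = 0.418). GFP replicate 3 had the highest FPKM of all 6 libraries for this gene. SDHC, the member of the complex with the highest FPKM, averaged 63.7 ± 3.36 FPKM in GFP-812 cells and 62.4 ± 1.36 FPKM in GFP cells (SD, n = 3 each; log2 fold change 0.04, adjusted p = 0.732). SDHB and SDHD had log2 fold changes of 0.03 and 0.01. No member of complex II had separate groups. In GENCODE, 22.3% of the 50-base windows of SDHA and 27.7% of those of SDHD also occur in other annotated genes, so their counts are uncertain.

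In complex III the members other than UQCRH did not pass. CYC1, the heme-bearing cytochrome c1, had a log2 fold change of 0.04, and the core proteins UQCRC1 and UQCRC2 had 0.09 and 0.07. The Rieske iron-sulphur protein UQCRFS1 was the single tested member with a fitted value below 0. It stood at 31.4, 34.1 and 28.9 FPKM in GFP-812 libraries, against 33.1, 31.1 and 35.6 FPKM in GFP libraries (log2 fold change -0.07, SE 0.0553, adjusted p = 0.575), with groups that overlapped. The small subunits UQCR11, UQCRQ, UQCRB and UQCR10 had log2 fold changes of 0.12, 0.11, 0.06 and 0.04. UQCR10 had 67.0, 64.8 and 67.2 FPKM in GFP-812 libraries, against 63.0, 58.8 and 73.7 FPKM in GFP libraries, which lay on both sides of the GFP-812 range.

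Complex IV had the highest median of the complexes and the most separated groups. COX7C lay just outside the threshold: it had 115.5, 109.2 and 111.8 FPKM in GFP-812 libraries, against 100.4, 93.8 and 111.7 FPKM in GFP libraries (log2 fold change 0.15, SE 0.0461, adjusted p = 0.0501). GFP replicate 3 lay within the GFP-812 range. COX5A, the member of this complex with the highest FPKM, averaged 113.7 ± 4.38 FPKM in GFP-812 cells and 110.0 ± 2.81 FPKM in GFP cells (SD, n = 3 each; log2 fold change 0.06, adjusted p = 0.545). COX6B1, which faces the intermembrane space, stood at 38.7, 43.8 and 45.4 FPKM in GFP-812 libraries, against 46.4, 39.7 and 42.8 FPKM in GFP libraries, a log2 fold change of 0.0029 whose sign turned under 9 of the alternative settings. COX5B, COX7A2, COX6A1, COX8A and COX7A2L, a form known for joining complexes III and IV into supercomplexes, had log2 fold changes of 0.14, 0.13, 0.12, 0.11 and 0.12 and did not pass. In GENCODE 44% of the 50-base windows of COX6A1 also occur in other genes, among them its pseudogene COX6A1P2, and 27.7% of those of COX8A occur in AP000721.1.

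Several subunits of complex IV have a second gene that is known from particular tissues, and these were nearly silent. COX4I2, known from lung and induced by hypoxia, and COX6A2, known from heart and skeletal muscle, had 0 counts in all 6 libraries. At these depths a count of 0 allows up to 0.211 CPM (counts scaled to library total) in the shallowest library and 0.170 CPM in the deepest (3 counts of the total, counting error only). The muscle form COX7A1 had 2 counts in all, COX7B2 had 3 and COX8C had 18, of which 12 came from GFP-812 replicate 2. COX6B2, known from testis, was the single alternative form with enough counts to be tested, at 0.57, 0.46 and 0.56 FPKM in GFP-812 libraries and 0.30, 0.52 and 0.28 FPKM in GFP libraries. Its log2 fold change of 0.54 had an SE of 0.333 (adjusted p = 0.435), and 34.2% of its windows also occur in other genes. The broadly expressed partners COX4I1, COX6A1, COX6B1, COX7A2, COX7B and COX8A all lay above 30 FPKM in each library. ATP5MGL, a copy of the ATP synthase gene ATP5MG, had 6 counts in all.

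**Figure D3:**
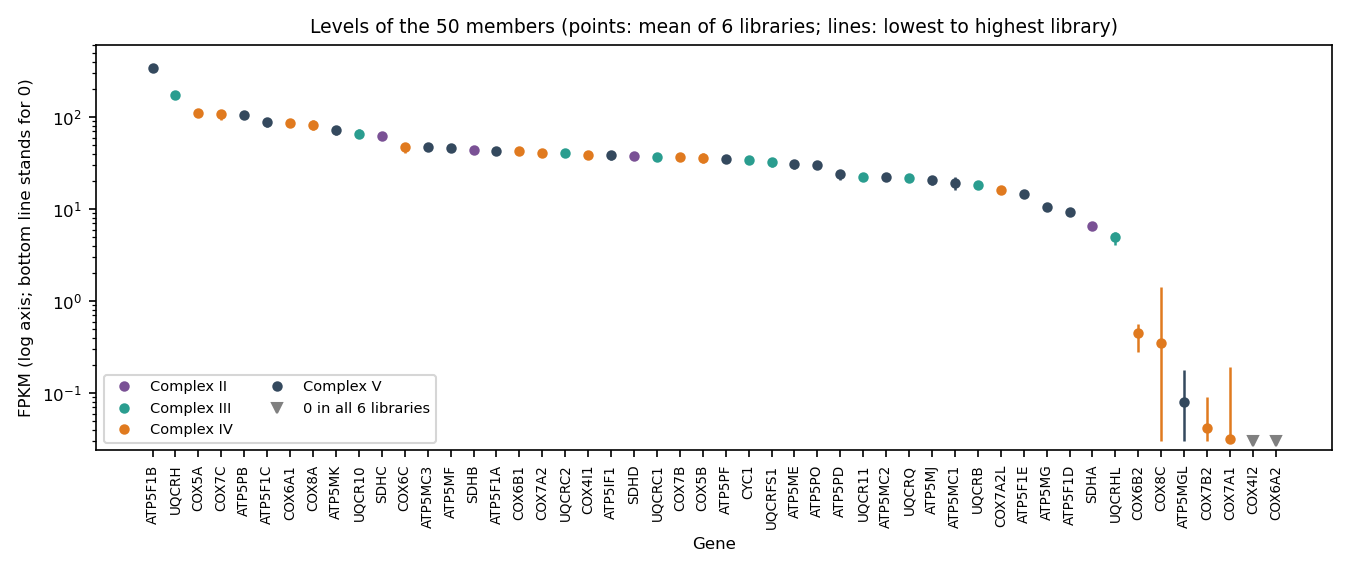
FPKM of the 50 members on a log axis (y axis), ordered by their mean over 6 libraries (points), with lines that run from the lowest to the highest library; triangles mark genes at 0 in all libraries. The 6 members that were not tested, and COX6B2, lie below 1 FPKM on average, whereas the other 43 lie above 4.

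In the ATP synthase no member besides ATP5MC1 passed. The F1 head, which makes ATP, is built from ATP5F1A and the catalytic ATP5F1B around the shaft of ATP5F1C, ATP5F1D and ATP5F1E. ATP5F1B had the highest FPKM of all members, at 355.3, 350.9 and 349.6 in GFP-812 libraries, against 334.7, 333.8 and 348.0 in GFP libraries. Its groups did not overlap, and the log2 fold change was 0.07 (SE 0.0353, adjusted p = 0.338). ATP5F1A, with 44.1 ± 0.361 FPKM in GFP-812 cells and 42.4 ± 1.40 FPKM in GFP cells (SD, n = 3 each), had the same separation and a log2 fold change of 0.07. Those of ATP5F1C, ATP5F1D and ATP5F1E were 0.10, 0.15 and 0.07.

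The peripheral stalk holds the head still against the turning ring. ATP5PD, its subunit d, came next by p in complex V, with 24.5, 26.3 and 25.4 FPKM in GFP-812 libraries, against 20.7, 21.3 and 26.3 FPKM in GFP libraries (log2 fold change 0.17, SE 0.0616, adjusted p = 0.109). GFP replicate 3 equalled the highest GFP-812 library. ATP5PB, ATP5PF and ATP5PO, the subunits b, F6 and OSCP, had log2 fold changes of 0.09, 0.07 and 0.05. The start of ATP5PF faces that of GABPA, a subunit of the factor GABP. In GENCODE 23.1% of its exonic bases overlap exons of other genes on the opposite strand, whose reads cannot be told apart if counting ignored strand. For ATP5PO, 69.0% of the 50-base windows also occur in the annotated gene AP000311.1, and its value is uncertain.

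Among the small membrane subunits, ATP5ME, ATP5MK, ATP5MJ, ATP5MG and ATP5MF had log2 fold changes of 0.16, 0.14, 0.14, 0.09 and 0.08. ATP5MK was the single one with separate groups, at 77.7, 74.2 and 74.8 FPKM in GFP-812 libraries, against 70.1, 63.5 and 73.6 FPKM in GFP libraries (adjusted p = 0.196). In GENCODE 61.6% of the exonic bases of ATP5ME overlap MYL5 on the opposite strand, and 15.8% of the 50-base windows of ATP5MK, 16.8% of those of ATP5MG and 16.7% of those of ATP5MF occur in other genes. ATP5IF1, which blocks the enzyme from splitting ATP when the proton gradient collapses, had 40.3, 39.5 and 38.9 FPKM in GFP-812 libraries, against 34.6, 37.5 and 40.2 FPKM in GFP libraries. Its groups overlapped (log2 fold change 0.09, SE 0.0545, adjusted p = 0.408).

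The GFP libraries differed more among themselves in the members' levels than the GFP-812 libraries did. GFP replicate 2 was the lowest of the 6 libraries for 34 of the 44 tested members (77.3%), on CPM after TMM scaling, beside 19.2% of all genes tested. The median member lay 0.14 below its own mean over 6 libraries in that library on the log2 scale (-0.14), against -0.04 in GFP replicate 1 and 0.02 in GFP replicate 3. In GFP-812 replicates 1, 2 and 3 it lay at 0.05, 0.05 and 0.05. GFP replicate 3 was at or above the lowest GFP-812 library for 29 of 44 members by FPKM. The share of all genes with that overlap was not computed. Over the counts of all genes tested, the GFP libraries also differed more among themselves. The chi-square per degree of freedom was 3.122 to 4.008 between pairs of GFP libraries, against 2.124 to 2.323 between pairs of GFP-812 libraries. By this measure GFP replicate 3 was also the GFP library nearest to GFP-812. Its chi-square per degree of freedom against single GFP-812 libraries was 10.79 to 11.24, beside 12.63 to 13.52 for GFP replicates 1 and 2. These values between groups include NEK1, which averaged 524.9 FPKM in GFP-812 and 3.907 FPKM in GFP libraries, and its part in them was not computed. The FPKM of all 3 GFP-812 libraries lay above those of all GFP libraries for 10 members, of which 1 was in complex III, 5 in complex IV and 4 in complex V, and for 7.93% of all genes tested.

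**Figure D4:**
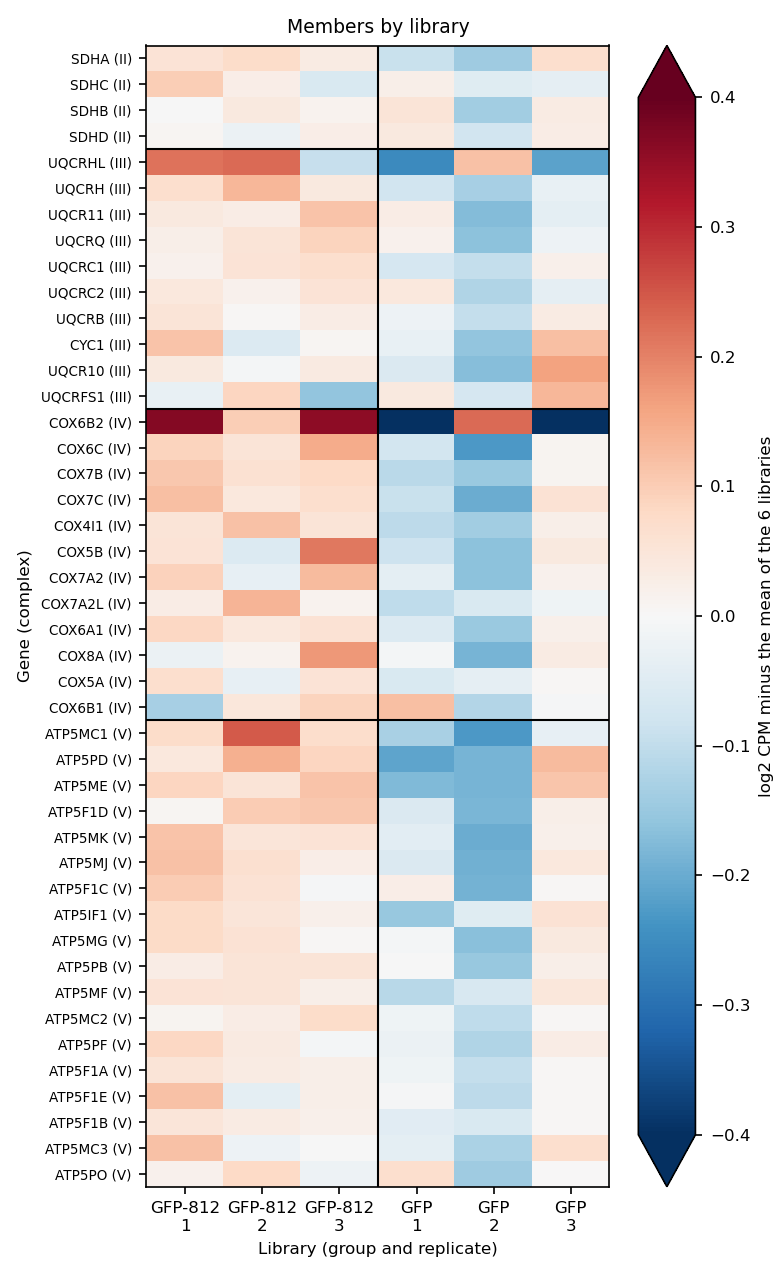
Log2 CPM of each tested member minus its mean over the 6 libraries (colour), with genes by complex (y axis) and libraries by group and replicate (x axis). The column of GFP replicate 2 is below the mean for nearly all members, and the median of GFP replicate 3, 0.02, lies nearer to the 0.05 of the GFP-812 libraries than to the -0.04 and -0.14 of the other GFP libraries.

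The number of members called varied with the library left out, and so did the share of all genes called. Without GFP replicate 3, 12 members rose, while 2.94% of all genes tested were called higher. These were the 5 above with COX7C, COX6A1, ATP5PD, ATP5ME, ATP5MJ, ATP5MK and ATP5PB. Without GFP replicate 2 the count was 0 (0.63% of all genes), with a median log2 fold change of 0.06 over the members and 37 above 0. The count was also 0 without GFP-812 replicate 2 (0.359% of all genes; members' median 0.10) and 1 without GFP replicate 1 (0.449%). It was 2 without GFP-812 replicate 1 (0.789%) and 2 without GFP-812 replicate 3 (0.487%). At such shares among all genes, a count of 0 says little about the members themselves. Counts of 1 or 2 rest on few genes, and whether they exceed those shares was not tested. No member fell in any of these fits. Limma on log2(FPKM + 1) called 0 members and 3 genes higher in all. Median-of-ratios scaling and DESeq2 called 3 members each (ATP5MC1, COX6C and UQCRH), beside 1.13% of all genes with median-of-ratios scaling and 0.333% of all genes fitted with DESeq2.

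**Figure D5:**
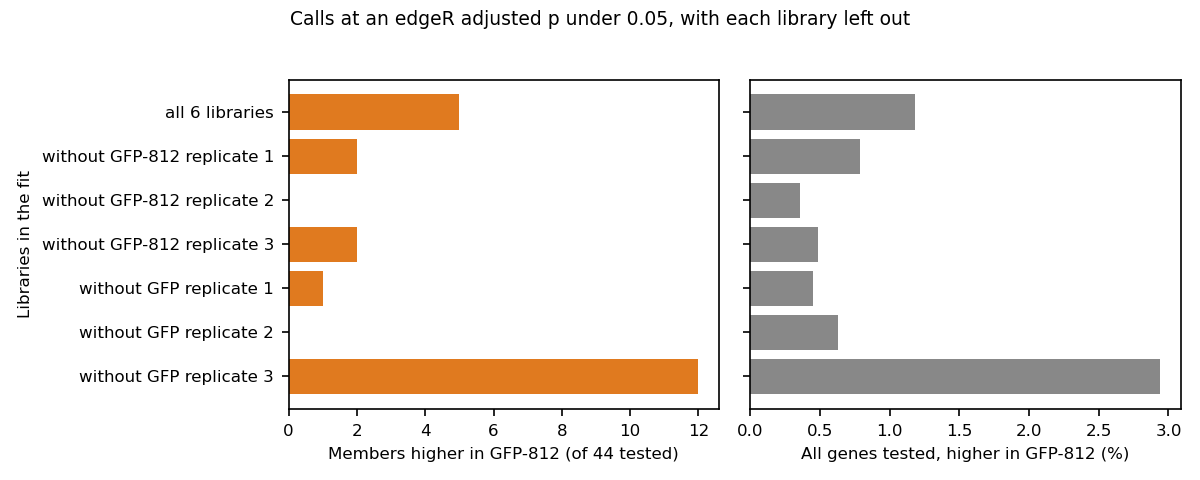
Number of members called higher in GFP-812 (left, of 44 tested) and percent of all genes tested called higher (right), in the fit to all 6 libraries and in fits that leave out 1 library (y axis). Both bars are longest without GFP replicate 3, and the members' count is 0 without GFP-812 replicate 2 or GFP replicate 2.

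As a share of all counts, the 50 members took 0.578%, 0.572% and 0.572% in GFP-812 libraries, against 0.544%, 0.519% and 0.569% in GFP libraries. The shares of complex IV were 0.128%, 0.126% and 0.130% in GFP-812 libraries, against 0.117%, 0.112% and 0.125% in GFP libraries, and this was the complex with the highest ratio of group means, at 1.08. The ratio was 1.05 for complex III, 1.05 for complex V and 1.02 for complex II, and in these 3 complexes the groups overlapped. All counts include mitochondrial genes and NEK1, which was high in GFP-812 libraries alone. Against nuclear genes without NEK1, the ratios were 1.093 for complex IV, 1.055 for III, 1.061 for V and 1.027 for II. On that base the groups no longer overlapped in complexes III and V. There GFP replicate 3 lay just below the lowest GFP-812 library (0.1174% against 0.118%, and 0.3047% against 0.3062%). No test was made of these sums.

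Fold changes differed by transcript length and level across all genes. The tested members had a median longest GENCODE transcript of 1746 bases, against 3329 bases for all genes tested, and 27 of 44 lay in the shortest of 4 length classes of equal size. Genes of that class had a median log2 fold change of 0.05, with 1.6% called higher and 0.363% lower, whereas those of the longest class had -0.02, with 0.919% higher and 5.76% lower. By level, 34 members lay in the highest of 4 classes, where the median log2 fold change was -0.02 and 2.57% of genes were called higher, beside 0.05 and 0.356% in the lowest class. After a correction for GC content and transcript length 4 members rose, beside 1.19% of all genes, and the members' median was 0.07. After a correction for exonic size 2 rose, ATP5MC1 and COX6C, beside 0.968% of all genes. What part length and level have in the members' values beyond these corrections was not tested.

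No assembly factor of the complexes passed. None of the 4 assembly factors of complex II, 10 of complex III, 30 tested of 31 of complex IV and 7 of complex V passed, and the list medians lay between 0.01 and 0.02. The smallest p among them was that of COA7, an assembly factor of complex IV, at 21.0 ± 0.817 FPKM in GFP-812 cells and 23.8 ± 1.61 FPKM in GFP cells (SD, n = 3 each; log2 fold change -0.17, adjusted p = 0.0707). In the other lists the smallest p-values belonged to SDHAF4 (log2 fold change 0.19, adjusted p = 0.449), UQCC6 (-0.23, 0.278) and OXA1L (0.09, 0.399). In the complex IV list 17 fitted values lay above 0 and 13 below. At an unadjusted p under 0.05 there were 0, 1, 5 and 0 genes in the lists of complexes II, III, IV and V. DESeq2 and limma-voom also called 0, whereas in the complex IV list 1 was called lower under each length correction, and 1 higher and 2 lower without GFP replicate 3.

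None of the 6 mitochondrially encoded partners passed (2 at an unadjusted p under 0.05), but DESeq2, limma-voom and the fit with no filter called 1 lower each and the corrections for length called 2 lower each. MT-CO3, a core subunit of complex IV, had 4388 ± 168.1 FPKM in GFP-812 cells and 4759 ± 81.0 FPKM in GFP cells (SD, n = 3 each; log2 fold change -0.10, SE 0.0326, adjusted p = 0.0546), the opposite sign to that of the nuclear subunits of the complex. MT-CO1, MT-CO2, MT-CYB, MT-ATP6 and MT-ATP8 had log2 fold changes of -0.01, -0.04, -0.05, -0.02 and 0.10. NDUFA4, a subunit of complex IV despite its name, had 29.5 ± 1.53 FPKM in GFP-812 cells and 27.1 ± 1.73 FPKM in GFP cells (log2 fold change 0.13, adjusted p = 0.16), and the electron carrier CYCS had a log2 fold change of -0.01.

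Of 7 carriers and channels that move ADP, ATP and phosphate, 0 passed (4 at an unadjusted p under 0.05) and 6 had values above 0; the smallest p was that of VDAC1, a channel of the outer membrane (log2 fold change 0.11, adjusted p = 0.0973). Without GFP replicate 3 the count was 3 higher, and with upper-quartile scaling 1 higher. Among 16 regulators of nuclear respiratory genes 1 fell, 0 rose and 15 did not pass (6 at an unadjusted p under 0.05), with a median of -0.04. The fallen gene was PPRC1, a coactivator related to PGC-1 that works with NRF1. It stood at 9.45, 9.21 and 9.22 FPKM in GFP-812 libraries, against 11.2, 11.0 and 11.0 FPKM in GFP libraries (log2 fold change -0.24, SE 0.0581, adjusted p = 0.00804), with no overlap. Leaving out GFP-812 replicate 2 (0.0782), GFP-812 replicate 3 (0.0705) or GFP replicate 1 (0.0586) ended this call. NRF1 and GABPA themselves had log2 fold changes of -0.03 and -0.02. Besides PPRC1, the regulators at an unadjusted p under 0.05 were GABPB1 (-0.16), YY1 (-0.09), TFAM (-0.09), TFB1M (0.18) and POLRMT (0.17). On a list of 7 genes around a hypoxia-linked switch between subunit forms, 6 were tested. Of these 2 rose and 4 did not pass, beside 1.18% of all genes tested called higher. The risen genes were COX4I1, the broadly expressed form already counted among the members, and PDK1, a kinase that holds back pyruvate oxidation. COX4I1 is on the list as the counterpart of COX4I2 and not as a form induced by hypoxia. Its rise is therefore not that of a hypoxia-induced form, and PDK1 was the single other gene called. COX4I2, the form induced by hypoxia, had 0 counts. LONP1, EGLN3, HIGD1A and NDUFA4L2 had log2 fold changes of 0.14, 0.20, -0.02 and -0.74 and did not pass. PDK1 had 8.61, 9.82 and 9.28 FPKM in GFP-812 libraries, against 7.51, 8.35 and 8.15 FPKM in GFP libraries (log2 fold change 0.22, SE 0.0497, adjusted p = 0.00387), a call lost without GFP-812 replicate 2 (0.135) or GFP replicate 1 (0.0782).

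Pseudogenes took few of the reads. The excluded rows comprised 104 pseudogenes, of which 68 had no count in any library, and they held 746 counts in all against 535408 in the members (0.139%). The 4 that were tested did not pass. The pseudogenes of COX6C held 69 counts beside 12434 in COX6C, and those of UQCRB held 202 beside 22047. How the authors' counting treated reads that fit a gene and its copy equally well is not given in the sources used here.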

How the data were processed

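Poly(A) RNA of 6 libraries (3 GFP-812, 3 GFP) was sequenced. HISAT2 2.2.1, HTSeq 0.6.1, cutadapt 1.9.1 and FastQC 0.10.1 are the programs listed, and hg38 the build, per the submitters' processing notes; neither annotation release nor strand setting is given in the sources used here. The authors deposited raw counts and FPKM for 61806 genes; each FPKM equals the deposited count divided by exonic size and library total, for 100% of values within 0.0051. Exonic size pools the exons of all transcripts of a gene, so FPKM understate genes whose main transcript is short.

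Groups came from sample titles. Counts were tested with edgeR 4.0.16 in R 4.3.3 (filterByExpr, TMM scaling, group as single term, quasi-likelihood F test, 2-sided, Benjamini-Hochberg over 16834 genes, threshold 0.05). SEs follow from the F statistic. The code was tested on data simulated with larger changes than those of the called members, so the simulation does not cover changes of their size. Alternatives were other scalings and filters, DESeq2 1.42.0, limma 3.58.1 (voom, and log2(FPKM + 1)), a replicate block, length corrections, protein-coding genes alone and leaving out each library. The GC and length correction and the restriction to protein-coding genes were added after seeing the data.

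Members and lists were chosen with earlier results of these data known. Named are all called members, the member of each complex with the highest FPKM or smallest p, all copies of a subunit with several genes, ATP5IF1, and from other lists the called genes and the smallest p. Per-library values or means of COX7C, ATP5PD, ATP5MK, ATP5F1A, UQCR10 and UQCRFS1 fall outside this rule and were chosen after their values were seen. The same holds for the mention of CYCS, the regulators other than PPRC1, the hypoxia-linked genes that did not pass and the mitochondrial genes other than MT-CO3. On the lists, 3 symbols were matched by older names. Windows of 50 bases shared between genes, exon overlaps and lengths are from GENCODE v29, promoters from RefSeq.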

Additional observations from a re-analysis of the deposited data

How the results depend on the processing

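Over the alternatives no member was called lower, and the members' median stayed above 0. Members called higher, beside genes called higher and lower among all tested, numbered 5, 198 and 449 in the fit reported; 3, 191 and 457 with median-of-ratios scaling; 3, 119 and 348 with DESeq2; 0, 3 and 1 with limma on log2(FPKM + 1); and 2, 163 and 524 with the exonic size correction. Settings without 1 library gave 0 to 12 members, 62 to 507 genes called higher and 147 to 810 called lower. Upper-quartile scaling, a mean FPKM of at least 1, limma-voom and protein-coding genes alone gave 6 members, beside 1.66%, 1.86%, 1.36% and 1.76% of all genes called higher; no filter and the GC and length correction gave 4, beside 0.487% and 1.19%. The replicate block gave 7 members, adding COX7C and ATP5PD, and 266 and 511 genes; same-numbered libraries deviated from their group means at correlations of 0.03, -0.01 and 0.01, so the numbers were not taken to pair the samples.

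Fitted values near 0 changed sign. With the exonic size correction SDHB, SDHD, UQCR10 and COX6B1 were at -0.0013, -0.0254, -0.0200 and -0.0480 and the complex II median at -0.0003; with the GC and length correction SDHB, SDHD, CYC1, UQCR10 and COX6B1 were at -0.0167, -0.0159, -0.0182, -0.0179 and -0.0740; with limma on log2(FPKM + 1) SDHD and COX6B1 were at -0.0069 and -0.0124; COX6B1 was at -0.0020 with no filter and -0.0003 with DESeq2. Over the fits without 1 library the lowest and highest values were -0.0007 and 0.0864 for SDHC, -0.0322 and 0.0258 for SDHD, -0.0261 and 0.1150 for CYC1, -0.0547 and 0.0654 for COX6B1, -0.0246 and 0.0682 for SDHB, -0.0345 and 0.1350 for UQCR10 and -0.0099 and 0.0948 for ATP5PO. The causes were not tested. The filter on low counts removed the 6 members with 18 counts or fewer over all libraries; without it, 48 members were fitted, all but the 2 with no count.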
